A study of Rattus norvegicus with 18 samples.

Results

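Gene expression in whole rat lung was measured 2 hours after the last exposure to cigarette smoke, in 6 of the 18 samples of the study. These were the samples whose titles give 2 hours as the interval between exposure and tissue collection, and they comprise 3 high-dose and 3 low-dose samples, 1 of each after 2, 7 and 13 weeks. Rats breathed diluted smoke by nose only at 600 µg (high dose) or 300 µg (low dose) total particulate matter per litre, in 2 daily sessions of 1 h with 30 min of fresh air between them, on 5 days a week. Control rats breathed conditioned fresh air in place of smoke, and each was collected after the same number of weeks and hours as the smoke-exposed rats it was set against. The sources used here give no strain, sex or age.

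Each sample was a hybridisation on 2-colour microarrays of RNA pooled from 4 smoke-exposed rats (Cy5) against RNA pooled from 4 air rats (Cy3), and its value is a log2 ratio, so that 1 means 2-fold higher after smoke. The high-dose and low-dose samples of a duration shared 1 air pool, which leaves 3 air pools for the 6 samples. The 2 ratios of a duration were therefore averaged, and the 3 averages of a gene (after 2, 7 and 13 weeks) were tested against 0. No condition had a replicate, so the standard errors (SE, n = 3 durations) contain both the spread between pools of animals and any effect of the length of exposure. They were computed with limma, which draws the variance of each gene toward a common value estimated from all genes. At 2 hours a gene's own variance had 2 degrees of freedom and the common value 7.15. An SE can therefore be smaller or larger than the plain one of the 3 averages. The dyes were not swapped, so any dye effect that a gene shows on every array stays in its value against air, but it cancels between hours and between doses.

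Of 4616 genes with a symbol, 3645 had a value at both doses in all 3 durations and were tested. The remaining genes lacked 1 or more of the 6 values. The 6 samples held values for 3934 to 4127 genes each, with a standard deviation across genes between 0.29 and 0.36 on the log2 scale, against 0.22 to 0.34 in the samples taken at 6 and 20 hours. Epithelial genes that mark the lung were measured in every sample, among them those of the surfactant proteins Sftpa1 and Sftpd and of the surfactant-processing protease Napsa. Ratios carry no absolute level, so the abundance of a transcript is unknown here, and precision is limited by how few arrays there are.

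Smoke carries polycyclic aromatic hydrocarbons and reactive oxidants. The hydrocarbons bind the aryl hydrocarbon receptor (AhR), which pairs with ARNT, binds a DNA core of the letters GCGTG and induces enzymes that oxidise and conjugate such compounds. Oxidants and electrophiles release the transcription factor NRF2 from KEAP1, and NRF2 binds antioxidant response elements in front of genes for glutathione synthesis, thioredoxin reduction and quinone reduction. Alveolar macrophages, which take up inhaled particles, and the epithelium both secrete chemokines, complement and acute phase proteins.

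Promoter windows of 250 bases before the transcription start are shown for 5 genes that changed and hold 1 match to a motif bound by a factor of these pathways. They were taken from RefSeq (build GRCr8) and were chosen because they hold a match. Capitals mark the match, GCGTG in Nqo1 and Ugt1a6, the antioxidant core TGACNNNGC in Gclm and Gstp1, and AGGTCA, a core shared by clock receptors such as those of the Nr1d and Ror families, in Bmal1. Both strands were searched, and in Nqo1 and Gclm the match lies on the opposite strand. The windows are chr19:52220268-52220517 (minus strand) for Nqo1, chr9:96194768-96195017 (plus) for Ugt1a6, chr2:213031885-213032134 (plus) for Gclm, chr1:210769706-210769955 (minus) for Gstp1 and chr1:176766078-176766327 (plus) for Bmal1.
Nqo1: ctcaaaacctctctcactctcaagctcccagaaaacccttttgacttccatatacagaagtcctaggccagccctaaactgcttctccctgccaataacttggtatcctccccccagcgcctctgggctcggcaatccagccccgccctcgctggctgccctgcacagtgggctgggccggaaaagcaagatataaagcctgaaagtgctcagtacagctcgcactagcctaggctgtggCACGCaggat
Ugt1a6: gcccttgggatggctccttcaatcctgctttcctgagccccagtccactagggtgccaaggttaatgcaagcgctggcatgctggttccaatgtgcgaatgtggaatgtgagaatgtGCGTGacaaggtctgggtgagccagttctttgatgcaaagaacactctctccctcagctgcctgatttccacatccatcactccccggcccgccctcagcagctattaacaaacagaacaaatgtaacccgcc
Gclm: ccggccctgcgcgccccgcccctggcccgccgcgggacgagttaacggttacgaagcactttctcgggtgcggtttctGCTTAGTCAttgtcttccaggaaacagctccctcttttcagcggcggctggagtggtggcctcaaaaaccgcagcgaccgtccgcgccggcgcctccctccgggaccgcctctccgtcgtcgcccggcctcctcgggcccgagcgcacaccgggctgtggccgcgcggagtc
Gstp1: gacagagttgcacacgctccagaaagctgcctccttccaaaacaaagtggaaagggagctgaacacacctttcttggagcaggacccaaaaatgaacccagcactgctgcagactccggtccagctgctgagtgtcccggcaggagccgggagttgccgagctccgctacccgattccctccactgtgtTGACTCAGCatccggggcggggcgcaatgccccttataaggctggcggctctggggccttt
Bmal1: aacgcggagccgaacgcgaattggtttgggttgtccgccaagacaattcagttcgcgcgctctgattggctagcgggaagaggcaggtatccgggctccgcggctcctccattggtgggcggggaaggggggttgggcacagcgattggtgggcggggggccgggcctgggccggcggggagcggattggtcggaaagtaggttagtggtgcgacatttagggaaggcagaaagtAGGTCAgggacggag
The matches begin 10 bases before the start in Nqo1, 133 in Ugt1a6, 172 in Gclm, 61 in Gstp1 and 15 in Bmal1. Among 33469 RefSeq windows of this length, GCGTG was found in 25.9%, TGACNNNGC in 10.1% and AGGTCA in 14.1%. Of the 21 genes that rose among the AhR and NRF2 lists described next, 14 had a window in the table, 15 windows in all, and 10 of these (66.7%) held GCGTG and 6 (40%) TGACNNNGC. Of the genes with GCGTG, Cyp1b1, Nqo1 and Ugt1a6 stand on the AhR list and the others on the NRF2 list alone. The lists were made with these data known and were kept here to members that rose. Members that did not rise were not counted apart, so these shares are a description. The matches are of letters and are not measured binding sites.

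Smoke changed 301 of 3645 genes (8.26%) at 2 hours, 189 upward (5.19%) and 112 downward (3.07%), by limma with Benjamini-Hochberg adjusted p under 0.05. The rises reached further than the falls: of 87 genes that also changed by at least 1.5-fold (2.39%), 69 rose (1.89%) and 18 fell (0.494%). In 707 genes (19.4%) all 6 samples lay on 1 side of air, above it in 381 (10.5%) and below it in 326 (8.94%). The count of calls depended on the durations: it was 321, 16 and 72 with the 2-week, the 7-week and the 13-week samples left out in turn. With 2 durations only 1 residual degree of freedom is left in such a fit. Of the 89 genes named by rule, 72 passed the threshold, and 13 of these also passed with each duration left out in turn, namely Cyp1a1, Aldh3a1, Nqo1, C3, Lcn2, Cxcl1, Ndrg4, Ms4a7, Atp1b1, Ggt1, Hmox1, Spon2 and Lrrn3. The number of the 72 that no longer passed was 6, 57 and 37 with the 2-week, the 7-week and the 13-week samples left out. In what follows, rose and fell refer to the test with all 3 durations.

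**Figure D1:**
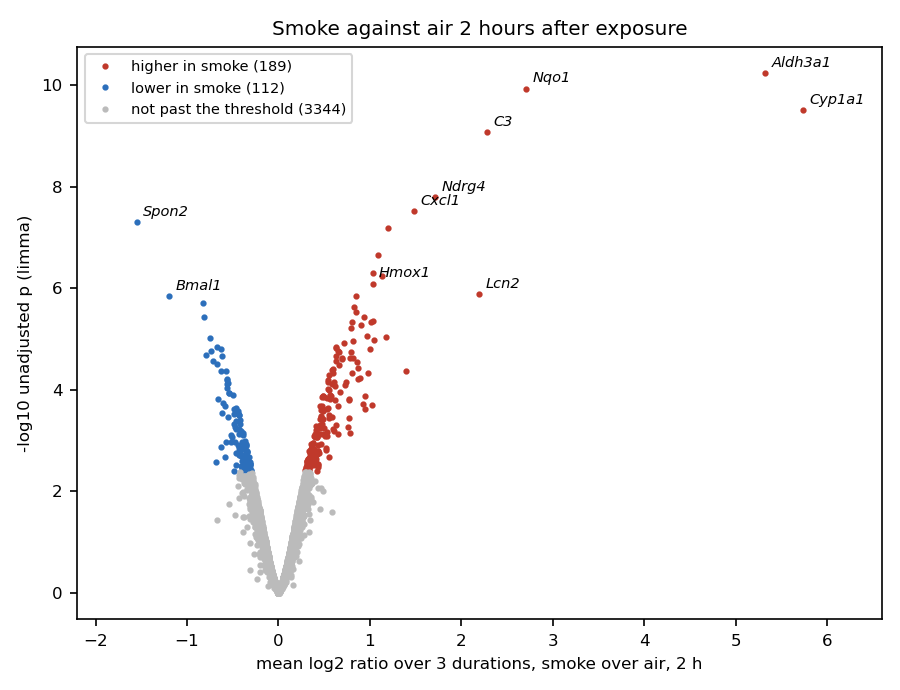
Mean log2 ratio of smoke over air at 2 hours (x axis, mean of 3 durations) against the unadjusted limma p on a -log10 scale (y axis) for 3645 genes. The 189 red points rose, the 112 blue points fell and grey points did not pass the threshold; Cyp1a1 and Aldh3a1 lie furthest to the right, at 5.74 and 5.33.

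The enzymes of hydrocarbon and aldehyde metabolism gave the largest changes. Cyp1a1, the cytochrome P450 that oxidises polycyclic aromatic hydrocarbons, had log2 ratios of 5.05, 5.95 and 6.37 at the high dose after 2, 7 and 13 weeks and of 4.91, 5.84 and 6.31 at the low dose. Its mean was 5.74 ± 0.20, a 53.4-fold rise (adjusted p = 3.76e-07). Aldh3a1, an aldehyde dehydrogenase that oxidises aromatic and lipid-derived aldehydes, had 5.57, 5.07 and 5.22 at the high dose and 6.23, 4.84 and 5.02 at the low dose, and rose 40.1-fold (5.33 ± 0.16, adjusted p = 2.13e-07). For both genes the ranges of the high-dose and low-dose samples overlapped. Within durations, each high-dose sample of Cyp1a1 lay slightly above the low-dose sample, and those of Aldh3a1 did not all do so. All 5 tested AhR targets rose, against 5.19% of all genes. Their median log2 ratio was 2.71, against 0.00167 over all 3645 genes. All 5 lay above air in all 6 samples (10.5% over all genes). The remaining members were the quinone reductase Nqo1 (2.71 ± 0.09, 6.54-fold, adjusted p = 2.16e-07), the glucuronosyltransferase Ugt1a6 (0.65 ± 0.08, 1.57-fold, adjusted p = 0.00161) and the P450 Cyp1b1 (0.32 ± 0.08, 1.25-fold, adjusted p = 0.0404). Ugt1a6 shares exons with other transcripts of its locus, which its probe may not separate. The count was 4, 3 and 4 without the 2-week, 7-week and 13-week samples, and Cyp1b1 passed in none of these fits. The receptor itself, Ahr, had values in the high-dose samples alone, 0.62, 0.04 and 0.32, and was not tested.

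Genes of glutathione, thioredoxin, quinone and iron handling rose as well. Of 28 tested members of the NRF2 and oxidative stress list, 17 rose and 0 fell (60.7%, against 8.26% called over all genes). The list had a median log2 ratio of 0.39, and 18 members lay above air in all 6 samples (10.5% over all genes). Nqo1, which stands on this list too, had 3.05, 2.96 and 2.85 at the high dose after 2, 7 and 13 weeks and 2.68, 2.42 and 2.29 at the low dose, so each high-dose sample lay above the low-dose sample of its duration. Hmox1, heme oxygenase, had 1.07, 1.88 and 1.37 at the high dose and 0.72, 0.55 and 0.60 at the low dose, and the doses did not overlap. It rose 2.04-fold (1.03 ± 0.09, adjusted p = 0.000246). Both subunits of glutamate-cysteine ligase, which makes the first step of glutathione synthesis, rose: the catalytic Gclc by 1.91-fold (0.94 ± 0.10) and the modifier Gclm by 1.66-fold (0.74 ± 0.11). The thioredoxin reductase Txnrd1 rose 1.80-fold, the glutathione transferase Gstp1 1.80-fold, the ferritin light chain Ftl1 1.82-fold, the mitochondrial superoxide dismutase Sod2 1.97-fold and the metal-binding Mt1 1.72-fold. Nfe2l2, which encodes NRF2, rose 1.45-fold (0.54 ± 0.09, adjusted p = 0.00793). Smaller rises were those of Gsr, Gsta2, Txn1, Tkt, Fth1, Me1 and Prdx6, between 1.26-fold for Prdx6 and 1.45-fold for Gsr. Gsta2 is the mean of 4 probes of a family of near-identical genes and is uncertain as to the member. The other 11 members, among them Sod1, Cat, Gpx1 and Prdx1, had means from -0.16 (Gss) to 0.34 (Gstm1) and did not pass. Without the 2-week, 7-week and 13-week samples 13, 2 and 9 members rose.

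**Figure D2:**
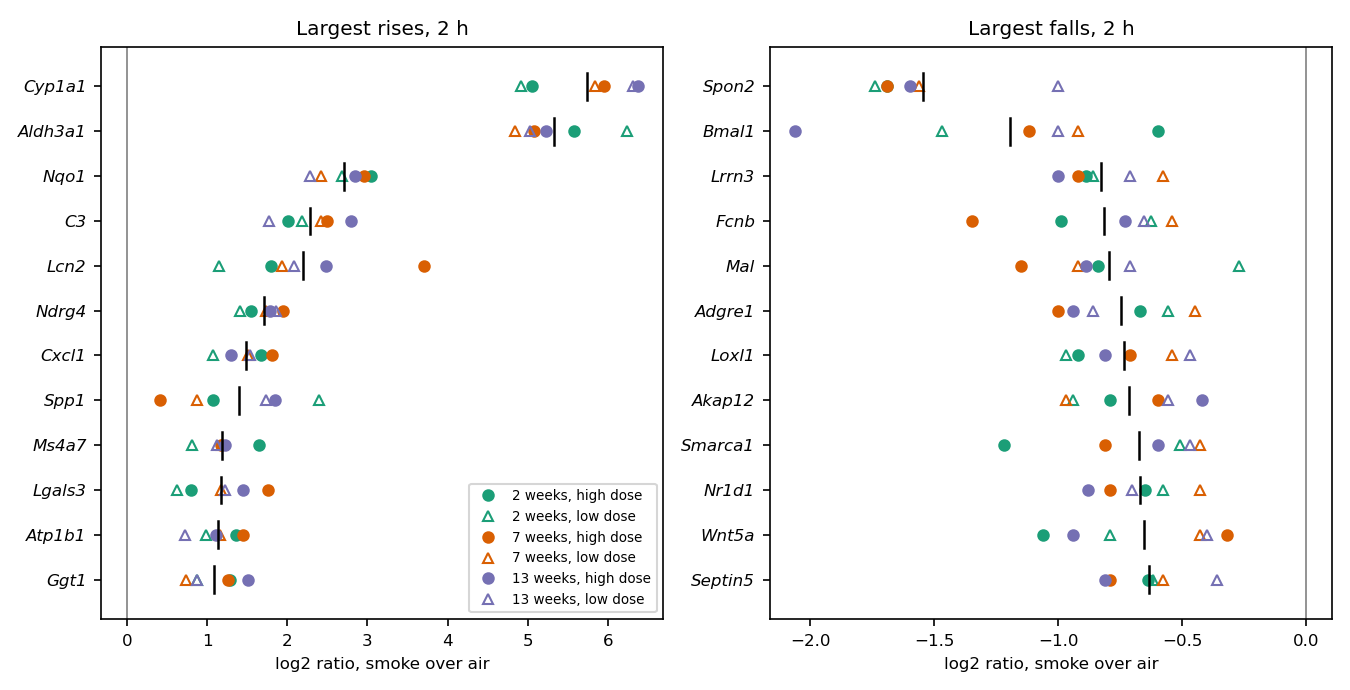
Log2 ratio of smoke over air at 2 hours (x axis) in each of the 6 samples for the 12 largest rises (left) and the 12 largest falls (right) among genes with 1 direction in all 6 samples. Filled circles are high-dose and open triangles low-dose samples, colours are weeks of exposure and the black bar is the mean; Lcn2 and Spp1 are the most spread of the rises, and Bmal1 of the falls.

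Complement, acute phase and chemokine genes formed another group of rises. Complement C3 had 2.01, 2.49 and 2.79 at the high dose after 2, 7 and 13 weeks and 2.19, 2.42 and 1.77 at the low dose, and rose 4.85-fold (2.28 ± 0.09, adjusted p = 7.77e-07). Lcn2, which encodes a protein that binds bacterial siderophores, was more variable, with 1.80, 3.71 and 2.48 at the high dose and 1.15, 1.93 and 2.09 at the low dose (2.19 ± 0.20, 4.57-fold, adjusted p = 0.000353). In the acute phase and complement list 10 of 15 tested genes lay above air in all 6 samples (10.5% over all genes). The median log2 ratio was 0.55. Of the 15, 12 rose and 0 fell (80%, against 8.26% called over all genes). They included the fetuin Fetub (2.04-fold), the complement regulators C4bpa (1.83-fold) and Cfi (1.72-fold), the immunoglobulin transporter Pigr (1.58-fold), the kininogen Kng2 (1.54-fold), the 3 chains of C1q (C1qa 1.42-fold, C1qb 1.47-fold, C1qc 1.46-fold) and haptoglobin Hp (1.39-fold). Serpina3n passed the test (0.55 ± 0.13, adjusted p = 0.0338) although its low-dose sample after 13 weeks was at -0.97. The plasma proteins Cp, A2m and Lbp had means of 0.07, 0.03 and 0.09. Without the 2-week, 7-week and 13-week samples 12, 2 and 7 of the list rose. Macrophage markers rose in the same samples (11 of 15), and their part in these values was not tested.

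Among 10 tested chemokines and cytokines 3 rose and 0 fell (30%, against 8.26% called over all genes), with a median of 0.16. The neutrophil attractant Cxcl1 had 1.67, 1.82 and 1.30 at the high dose and 1.07, 1.51 and 1.53 at the low dose, and rose 2.79-fold (1.48 ± 0.09, adjusted p = 1.85e-05); its 2 probes averaged 1.48 and 1.49. Ccl3, a chemokine of macrophages, rose 1.89-fold (0.92 ± 0.15) with a range from 0.15 to 1.57 over the 6 samples. Csf2, which encodes the growth factor GM-CSF, rose 1.62-fold (0.70 ± 0.09), with 1 of 6 samples, low dose after 2 weeks, at -0.04. Ccl2, the monocyte attractant, stood at 0.12 ± 0.09 and Il1b, the inflammatory cytokine, at 0.14 ± 0.12, and neither passed. Tnf had 5 of 6 values, from -0.49 to 0.00, and Il6 had 1 value, 0.28 in the high-dose sample after 7 weeks. Without the 2-week, 7-week and 13-week samples 4, 1 and 2 of the list rose and 1, 0 and 0 fell. Cxcl1 was the 1 without the 7-week samples, and Ccl3 did not pass without the 13-week samples.

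Most tested markers of macrophages rose, with exceptions. Of 15 tested markers 11 rose and 1 fell (80%, against 8.26% called over all genes), with a median of 0.55. Of the 15, 10 lay above air in all 6 samples (10.5% over all genes). Spp1, the secreted phosphoprotein osteopontin, had 1.08, 0.41 and 1.85 at the high dose and 2.40, 0.88 and 1.74 at the low dose (1.39 ± 0.19, 2.63-fold, adjusted p = 0.00271). The galectin Lgals3 rose 2.25-fold (1.17 ± 0.13), the lysosomal membrane protein Cd68 2.00-fold (1.00 ± 0.12) and the lysosomal protease Ctsd 1.70-fold (0.77 ± 0.14). The cathepsins Ctss and Ctsb rose 1.54-fold and 1.52-fold, lysozyme Lyz2 1.51-fold, the endotoxin coreceptor Cd14 1.47-fold and the elastase Mmp12 1.45-fold. Adgre1, which encodes the surface protein F4/80, fell: it had -0.67, -1 and -0.94 at the high dose and -0.56, -0.45 and -0.86 at the low dose (-0.75 ± 0.09, adjusted p = 0.00124). The growth factor receptor Csf1r stood at -0.28 ± 0.09 and the adaptor Tyrobp at 0.01 ± 0.09, and neither passed. Fabp4, also on this list, averaged 0.93, -1.33 and 0.04 after 2, 7 and 13 weeks. In pooled whole lung a change in the number of cells of a type and a change in RNA per cell cannot be told apart. The 11 rises were 10, 1 and 1 without the 2-week, 7-week and 13-week samples; the 1 that passed without the 7-week samples was Spp1.

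Lymphocyte markers lay on the other side. Of 14 tested, 0 rose and 5 fell (35.7%, against 8.26% called over all genes), with a median of -0.38. Of the 14, 4 lay below air in all 6 samples (8.94% over all genes). The cytotoxic granule genes Prf1 and Gzma had means of -0.68 ± 0.17 and -0.63 ± 0.14, the T cell receptor chain Cd3g -0.58 ± 0.14, the B cell receptor chain Cd79b -0.49 ± 0.13 and Cd4 -0.30 ± 0.08, with adjusted p between 0.0265 for Gzma and 0.0492 for Cd79b. Prf1, Gzma and Cd3g were not among the 4, since each had 1 sample above air after 2 weeks. Cd3g was at 0.28 at the low dose and Gzma at 0.01 at the high dose. Prf1 and Gzma lay nearer to air after 2 weeks than later. Prf1 had -0.22 at the high dose and 0.01 at the low dose after 2 weeks. It had -1.15 and -0.34 after 7 weeks and -1.25 and -1.15 after 13 weeks. Without the 2-week samples 10 of the list fell, and without the 7-week or the 13-week samples 0 did. Among 7 tested neutrophil and mast cell markers 1 fell (14.3%, against 8.26% called over all genes). It was the lectin Fcnb (-0.82 ± 0.08, adjusted p = 0.000684), whose 2 probes averaged -0.99 and -0.64. The neutrophil granule genes S100a8 and S100a9 differed between durations and are given with them.

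Early response genes of the transcription factor and feedback classes were mostly near air at 2 hours. Of 13 tested immediate early genes 3 rose and 0 fell (23.1%, against 8.26% called over all genes), with a median of 0.06. Fos stood at 0.00 ± 0.08, Jun at -0.09 ± 0.08 and Atf3 at 0.24 ± 0.11, and none passed; the 6 Fos values ran from -0.13 to 0.26. The rises were those of the stress gene Ier3 (0.57 ± 0.09, 1.48-fold), the zinc finger factor Klf4 (0.48 ± 0.09, 1.39-fold) and the AP-1 member Fosl1 (0.30 ± 0.08, 1.23-fold, adjusted p = 0.0486). None of these 3 passed without the 7-week or without the 13-week samples. Egr1 had 5 of 6 values, 4 between -0.29 and 0.08 and 1.18 in the low-dose sample after 7 weeks. Of 14 feedback inhibitors of kinase and NF-kB signalling 0 rose and 1 fell (7.14%, near the 8.26% over all genes), with a median of 0.11. The fall was that of the cytokine signalling inhibitor Socs1 (-0.57 ± 0.08, adjusted p = 0.00379). Without the 7-week samples Socs1 did not pass (adjusted p = 0.136). The phosphatase Dusp1 stood at 0.13 ± 0.10. Nfkbia, the inhibitor of NF-kB, missed the threshold (0.30 ± 0.08, adjusted p = 0.0506), with 0.41, 0.56 and 0.62 at the high dose and -0.01, 0.12 and 0.10 at the low dose.

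Among 27 tested genes of the heat shock and unfolded protein responses 3 rose and 0 fell (11.1%, near the 8.26% over all genes), with a median of 0.01. The inducible chaperone Hspa1a rose 1.58-fold (0.66 ± 0.08, adjusted p = 0.00161), with 0.57, 0.71 and 0.16 at the high dose and 0.74, 0.83 and 0.95 at the low dose. The small heat shock protein Hspb8 and the endoplasmic reticulum protein Herpud1 rose 1.34-fold and 1.30-fold. Without the 2-week, 7-week and 13-week samples 2, 0 and 1 of these rose. Hspa5, the endoplasmic reticulum chaperone BiP, stood at -0.29 ± 0.08 (adjusted p = 0.0657). Of 19 genes of p53, DNA damage and apoptosis 1 rose (5.26%, near the 5.19% that rose over all genes). It was Mdm2 (0.34 ± 0.09, adjusted p = 0.0457), which no longer passed when any 1 duration was left out. The cell cycle inhibitor Cdkn1a stood at 0.36 ± 0.10 (adjusted p = 0.0685), and the stress cytokine Gdf15 had 5 values, 0.19, 0.87 and 1.24 at the high dose and -0.17 and 0.88 at the low dose after 2 and 13 weeks.

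Among 14 tested glucocorticoid-responsive genes 5 rose and 1 fell (42.9%, against 8.26% called over all genes), with a median of 0.28. The receptor co-chaperone Fkbp5 had 0.98, 1.31 and 0.80 at the high dose and 0.50, 0.90 and 0.39 at the low dose, and rose 1.76-fold (0.81 ± 0.10, adjusted p = 0.00189). Tsc22d3, the leucine zipper protein GILZ, rose 1.62-fold (0.70 ± 0.09), and Mt1, Lcn2 and the annexin Anxa1 (1.26-fold) made up the 5. The kinase Sgk1 stood at 0.08 ± 0.08. The glucocorticoid receptor Nr3c1 fell (-0.48 ± 0.09, adjusted p = 0.013), from -0.12 to -0.71 over the samples. Without the 2-week, 7-week and 13-week samples 4, 1 and 3 of the list rose, and Lcn2 was the 1 without the 7-week samples.

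The circadian clock list moved in both directions, with 2 rises and 2 falls among 6 tested genes (66.7%, against 8.26% called over all genes). Bmal1, the activator of the clock, had -0.60, -1.12 and -2.06 at the high dose after 2, 7 and 13 weeks and -1.47, -0.92 and -1 at the low dose, and fell 2.29-fold (-1.20 ± 0.11, adjusted p = 0.000353; 0.0565 without the 7-week samples). The clock output factors Dbp and Tef rose, Dbp 1.93-fold (0.95 ± 0.15) and Tef 1.37-fold (0.45 ± 0.08). The repressor Nr1d1 fell (-0.67 ± 0.08, adjusted p = 0.00161), while Nr1d2 (0.30 ± 0.09) and Bhlhe40 (0.27 ± 0.10) did not pass. Dbp passed without the 7-week samples but not without the 13-week samples, Bmal1 and Nr1d1 the reverse, and Tef passed in neither fit. Per1 and Per2 were not analysed here.

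The largest fall was that of Spon2, an extracellular matrix protein of innate defence. It had -1.69, -1.69 and -1.60 at the high dose and -1.74, -1.56 and -1 at the low dose, and fell 2.92-fold (-1.55 ± 0.10, adjusted p = 2.63e-05). Of 23 tested genes of matrix and proteases 3 rose and 3 fell (26.1%, against 8.26% called over all genes), with a median of -0.15. Of the 23, 7 lay below air in all 6 samples (8.94% over all genes). The falls were Spon2 and the collagens Col5a2 (-0.57 ± 0.12) and Col3a1 (-0.52 ± 0.10), and the rises the matricellular factor Ccn2 (1.75-fold), the urokinase receptor Plaur (1.73-fold) and Mmp12. Without the 7-week samples 0 rose and Spon2 alone fell, while 3 rose and 6 fell without the 2-week and 2 rose and 1 fell without the 13-week samples. Other falls among the 12 largest were the leucine-rich repeat gene Lrrn3 (-0.83 ± 0.08), the membrane protein Mal (-0.80 ± 0.10), the collagen cross-linking enzyme Loxl1 (-0.74 ± 0.09), the kinase scaffold Akap12 (-0.71 ± 0.09), the chromatin remodeller Smarca1 (-0.67 ± 0.09), the secreted signal Wnt5a (-0.66 ± 0.11) and Septin5 (-0.63 ± 0.08). Among the rises not on any list were Ndrg4 (1.72 ± 0.09, 3.28-fold), the macrophage membrane gene Ms4a7 (1.19 ± 0.08, 2.29-fold), the sodium pump subunit Atp1b1 (1.13 ± 0.09, 2.19-fold), the glutathione-cleaving enzyme Ggt1 (1.09 ± 0.08, 2.13-fold), the translation inhibitor Eif4ebp1 (1.05 ± 0.12, 2.07-fold) and the P450 reductase Por (0.82 ± 0.10, 1.76-fold).

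Markers of alveolar epithelium moved in both directions, and few of other structural cells passed. Of 7 tested alveolar epithelial markers 3 rose and 1 fell (57.1%, against 8.26% called over all genes). The rises were Sftpa1 (1.44-fold), Napsa (1.32-fold) and Sftpd (1.30-fold), all products of type II cells. The fall was that of the water channel Aqp5 of type I cells (-0.36 ± 0.09, adjusted p = 0.0416). The type I markers Pdpn, Ager and Hopx stood at -0.21, -0.08 and 0.06 and did not pass. Of 16 endothelial and smooth muscle markers 1 rose and 1 fell (12.5%, near the 8.26% over all genes). The rise was that of the vasoconstrictor Edn1 (0.81 ± 0.11, 1.75-fold, adjusted p = 0.00275). The fall was that of the growth factor Vegfa (-0.34 ± 0.08, adjusted p = 0.0376). None of these 6 genes passed without the 7-week or without the 13-week samples. Both tested airway genes, Foxj1 of ciliated cells (0.38 ± 0.13) and Krt5 of basal cells (0.19 ± 0.08), did not pass, but Foxj1 did without the 13-week samples (adjusted p = 0.0429). Of 16 lipid and cholesterol genes 4 rose and 1 fell (31.2%, against 8.26% called over all genes), with a median of 0.15. The fatty acid carrier Fabp5 (1.71-fold), the sterol exporter Abcg1 (1.43-fold), the fatty acid receptor Cd36 (1.33-fold) and the lipase Lpl (1.30-fold) rose. The fatty acid hydroxylase Cyp4a1 fell (-0.31 ± 0.08). Without the 7-week or the 13-week samples 0 of this list passed. Of 8 striated muscle markers 0 passed, the furthest from air being Nppa (0.59 ± 0.22) and Actc1 (-0.31). Of 3 blood markers the haemoglobin chain Hbb rose (0.33 ± 0.08, adjusted p = 0.0405; not with any duration left out), and of 11 reference genes 0 passed (median 0.05), with Eef1a1 at 0.36 ± 0.10 and Rplp0 at 0.34 ± 0.10 the furthest from air. Hbb was at 0.91 in the low-dose sample after 13 weeks, the sample in which Eef1a1 was at 0.97.

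**Figure D3:**
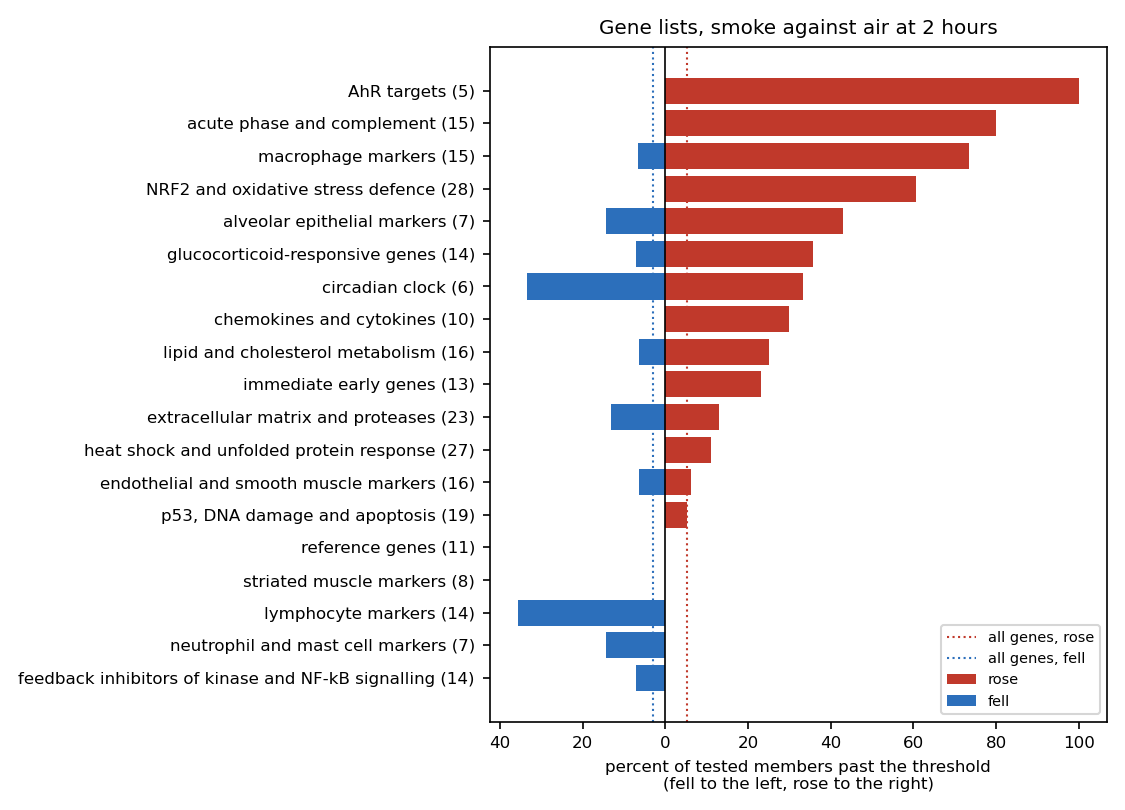
Share of tested members (x axis, percent) that rose (red, to the right) or fell (blue, to the left) at 2 hours in each gene list with at least 5 tested members, whose number is in brackets. Dotted lines mark the shares over all genes, 5.19% and 3.07%; the AhR, acute phase, macrophage and NRF2 lists have the longest red bars and the lymphocyte and clock lists the longest blue ones.

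The values at 2 hours were compared with those of the samples taken at 6 and 20 hours, which had their own smoke and air pools. Against air, the same test called 165 of 3842 genes (4.29%; higher 2.84%, lower 1.46%) at 6 hours and 214 of 4046 (5.29%; higher 3.06%, lower 2.22%) at 20 hours. Of genes tested at both 2 and 6 hours 91 were called at both, which is 30.3% of the 2-hour calls and 58.7% of the 6-hour calls, and 88 of them had 1 direction. With 20 hours 106 were shared, 35.2% of the 2-hour calls and 53.8% of the 20-hour calls, 104 in 1 direction. A dye effect common to all arrays would be shared in the same way. The mean at 2 hours was then tested against the mean of 6 and 20 hours, a difference in which that effect cancels. It differed in 62 of 3560 genes (1.74%), higher at 2 hours in 41 (1.15%) and lower in 21 (0.59%). Of 300 genes called at 2 hours that entered this test 50 passed it, and in 281 of the 300 the later mean lay on the same side of air. The 300 were chosen on their values at 2 hours, which enter the difference too, so these counts are a description. Without the 2-week, 7-week and 13-week samples the 62 became 20, 17 and 31.

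Cyp1a1, Aldh3a1 and Nqo1 declined in order of time. Cyp1a1 averaged 5.74 at 2 hours, 3.95 at 6 hours and -0.22 at 20 hours, and the 2-hour value exceeded the later mean by 3.88 ± 0.29 (adjusted p = 1.17e-05). For Aldh3a1 the means were 5.33, 1.95 and 0.32 (difference 4.19 ± 0.13, adjusted p = 9.61e-10) and for Nqo1 2.71, 1.62 and 0.30 (1.75 ± 0.09, adjusted p = 2.67e-07). In these 3 genes every duration ran downward from 2 to 6 to 20 hours. Ndrg4, which stood at 1.72 at 2 hours, was at 0.27 and 0.05 later (difference 1.55 ± 0.13, adjusted p = 3.26e-05). Por was at 0.82, -0.26 and 0.31, and Eif4ebp1 at 1.05, 0.22 and 0.17. In the NRF2 list 6 of 28 members were higher at 2 hours than later (1.15% over all genes): Nqo1, Hmox1, Gclc, Gclm, Txnrd1 and Nfe2l2. Nfe2l2 averaged 0.54, 0.00 and -0.03, and Gclm 0.74, 0.04 and 0.07. Sod2, Mt1 and Fth1 did not differ in that test (differences of 0.10, 0.02 and 0.05).

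Lcn2 and the macrophage markers did not pass this test. Lcn2 averaged 2.19, 2.16 and 2.17 at 2, 6 and 20 hours, with a difference of 0.03 ± 0.11 (adjusted p = 0.937). Of the 15 tested macrophage markers 0 differed between 2 hours and later. Over all genes 1.74% did, so a count of 0 among 15 is near that share. Cd68 averaged 1.00, 0.97 and 0.85. The largest difference, that of Spp1, was 0.84 (adjusted p = 0.0719). Of the 14 acute phase genes in this test C3 alone was higher at 2 hours (1.15% over all genes), with 2.28, 1.35 and 0.96. Genes lower at 2 hours than later included the inflammatory genes S100a8 (-0.68, 0.77 and 0.26 at 2, 6 and 20 hours), S100a9 (0.16, 1.66 and 1.04) and Il1b (0.14, 0.76 and 0.39). Fcnb was at -0.82, 0.24 and -0.39, and Spon2 at -1.55, -0.66 and -1.20. S100a8, S100a9 and Fcnb were the 3 of the 7 neutrophil and mast cell markers lower at 2 hours (0.59% over all genes). None of the 7 was higher.

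The clock genes Bmal1 and Dbp changed sign between the hours, while Nr1d1 stayed below air (-0.67, -0.44 and -0.23 at 2, 6 and 20 hours). Bmal1 averaged -1.20 at 2 hours, 1.18 at 6 hours and -2.00 at 20 hours, and Dbp 0.95, -1.70 and 2.22. Between 2 and 6 hours 74 genes differed (2.08%), and between 2 and 20 hours 33 (0.927%), of which 26 (0.73%) were higher at 2 hours. The difference between 2 and 6 hours was -2.37 for Bmal1 (adjusted p = 5.27e-05) and 2.65 for Dbp (adjusted p = 0.000119), and all 3 durations lay on 1 side of air at each hour for both genes. Between 2 and 20 hours the difference was 0.80 for Bmal1 (adjusted p = 0.107) and -1.27 for Dbp (adjusted p = 0.0281). Against the mean of the later hours, in which their opposite signs are averaged, Bmal1 was lower at 2 hours by 0.78 (adjusted p = 0.0447) and Dbp did not pass (0.69, adjusted p = 0.161).

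**Figure D4:**
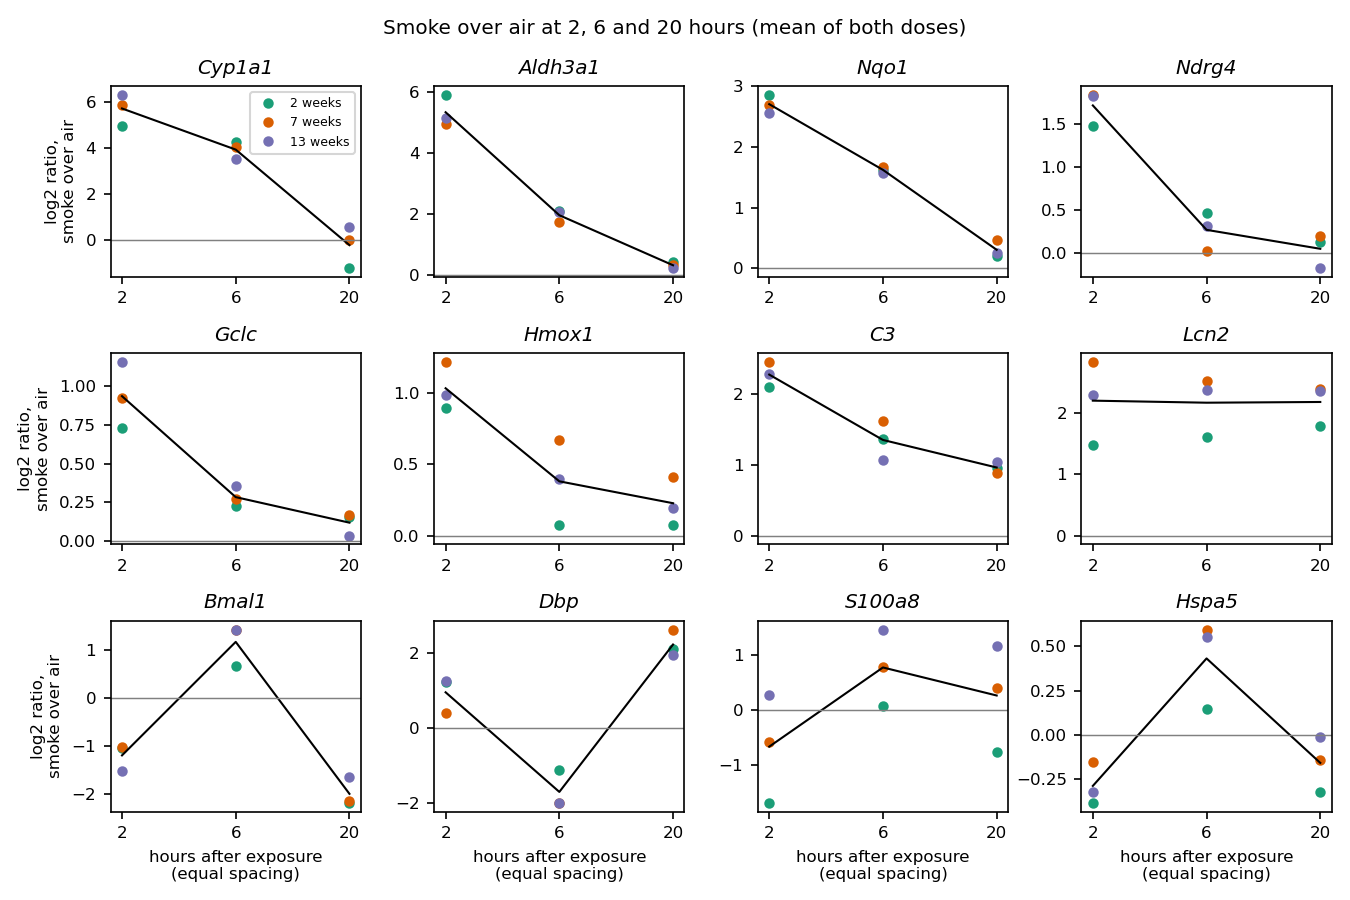
Log2 ratio of smoke over air (y axis, own scale in each panel) at 2, 6 and 20 hours after exposure for 12 genes. Each point is the mean of both doses in 1 duration and the line joins the means of the 3 durations. Cyp1a1, Aldh3a1 and Nqo1 decline toward air, and Bmal1 and Dbp change sign at 6 hours. The line of Lcn2 lies between 2.16 and 2.19, and its points run from 1.475 to 2.82.

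Few differences between the doses passed a test at 2 hours. The difference of high minus low dose, in which the shared air pool cancels, passed in 0 of 3645 genes (0%) by limma, with 237 genes at an unadjusted p under 0.05. When all 9 combinations of weeks and hours entered 1 fit, 2 of 3560 genes (0.0562%) passed, the peptide receptor component Ramp3 (0.89 ± 0.13, adjusted p = 0.0115) and Odf1 (-1.12 ± 0.19, adjusted p = 0.0415). Ramp3 had 0.45, 0.68 and 0.81 at the high dose after 2, 7 and 13 weeks and -0.23, -0.22 and -0.29 at the low dose, so the doses lay on opposite sides of air in every duration (adjusted p = 0.135 in the 3 differences at 2 hours). Hmox1 averaged 1.44 at the high dose and 0.62 at the low dose (difference 0.82 ± 0.17, adjusted p = 0.549), Lcn2 2.66 and 1.72 (0.94 ± 0.22) and Nqo1 2.95 and 2.46 (0.49 ± 0.12). Cyp1a1 and Aldh3a1 differed by 0.10 ± 0.12 and -0.08 ± 0.17 between the high and the low dose. Without the 13-week samples 3 genes were lower at the high dose, Odf1, Hspb2 and Bnip3 (-1.69, -1.59 and -1.34). A difference that misses the threshold here does not show that the doses acted alike.

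The length of exposure was compared across genes, since the 3 durations share no pool. Over the 3645 genes the 2-hour means after 2 and 7 weeks correlated with Pearson r = 0.644 (Spearman rho = 0.474), those after 2 and 13 weeks with r = 0.614 (rho = 0.424) and those after 7 and 13 weeks with r = 0.651 (rho = 0.437). Genes are not independent replicates, and a constant dye effect would be common to all 3. Changes of at least 2-fold were seen in 18 genes upward and 4 downward after 2 weeks, 28 and 9 after 7 weeks and 26 and 4 after 13 weeks. Cyp1a1 averaged 4.98, 5.90 and 6.34 after 2, 7 and 13 weeks.

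S100a9, a neutrophil granule gene, had the widest range between durations. It averaged -1.42 after 2 weeks, 0.30 after 7 weeks and 1.61 after 13 weeks, and its partner S100a8 -1.70, -0.60 and 0.27. Neither passed against air (adjusted p = 0.84 and 0.178), but S100a9 did without the 2-week samples (adjusted p = 0.000486). At each duration the high-dose and low-dose values of S100a9 were -1.47 and -1.36, 0.82 and -0.23, and 1.68 and 1.54, so that they differed in sign after 7 weeks. The lipogenic factor Thrsp (0.78, -1.71 and 0.22) and the fatty acid carrier Fabp4 (0.93, -1.33 and 0.04) were above air after 2 weeks and below it after 7 weeks at both doses. The muscle protein Csrp3 was at 1.02 and 0.82 (high and low dose) after 2 weeks, and after 7 weeks at 0.26 at the high dose and -2.94 at the low dose. Nppa, the atrial natriuretic peptide, was at 2.16 in the high-dose sample after 2 weeks, at 0.76 in the low-dose sample of that duration, and between -0.01 and 0.44 in the other 4. With 1 pool of 4 rats per dose and duration, the effect of the weeks and that of the animals in a pool cannot be told apart.

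**Figure D5:**
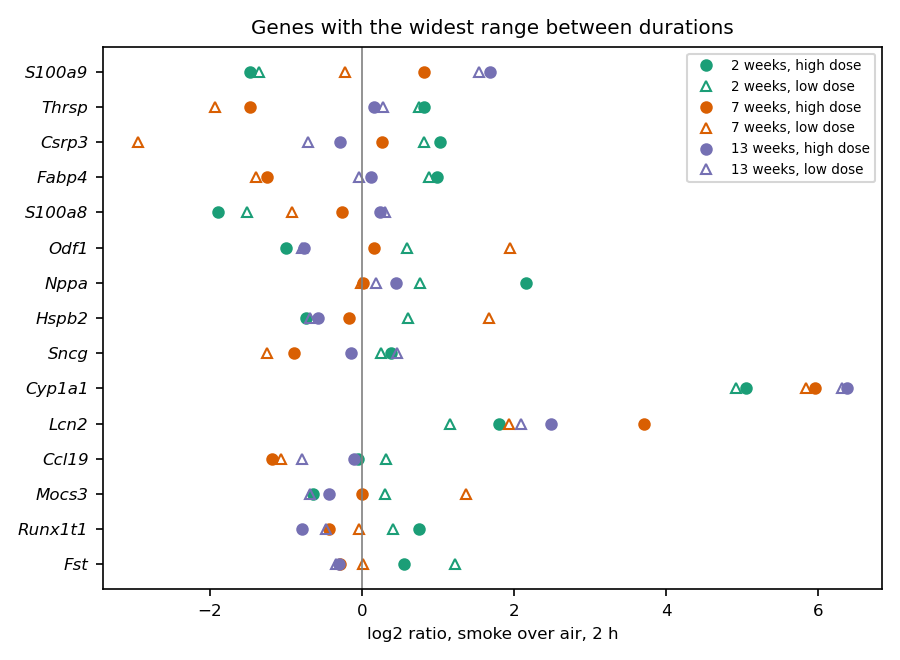
Log2 ratio of smoke over air at 2 hours (x axis) in each of the 6 samples for the 15 genes with the widest range between the 3 durations. Filled circles are high-dose and open triangles low-dose samples and colours are weeks of exposure; S100a9 runs from -1.47 to 1.68, while the lowest Cyp1a1 value is 4.91.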

How the data were processed

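The authors deposited 1 table of log2 ratios for 18 samples, red (smoke) over green (air), per the labels on 2 PIQOR array types (348 and 350). The sources used here do not name the scanner, the background correction or the normalization, and array signals were not used. Spots listed 2 times at a fixed distance of rows were counted once. Of 5997 such pairs 5855 had equal values, 1 differed and 141 shared no value. Probes of 1 gene, or with no gene name, that were nearly equal in every shared value were merged too. The remaining probes of a gene were averaged (114 genes had more than 1), and 9614 of 9658 named rows matched a current symbol. Low-dose and high-dose values of a duration were averaged because they share an air pool, and genes with all 6 values were tested against 0 with limma 3.58.1 (R 4.3.3), Benjamini-Hochberg adjusted, two-sided, over all genes tested. The p-values rest on the spread between the 3 averages of a gene, moderated by the variance of all genes, and that spread may be technical. Each average sets 2 smoke pools against 1 air pool. Exact sign flips of 3 values cannot go below p = 0.25. Differences between hours were fitted with weeks as a factor on 9 means, and differences between doses on 3 differences. The code was tested on simulated data. Genes were named by rule: the 12 largest rises and falls with 1 sign in all 6 samples, up to 8 each way between hours, up to 4 per list and a short set always given. The members and the 21 gene lists were chosen with earlier results of these data known. Alternatives were left-out durations, single doses, other filters, scalings, priors and a random block for the air pool.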

Additional observations from a re-analysis of the deposited data

Results flagged for a closer look

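Genes named by the rule or standing on a list are given here where the difference between 2 hours and the mean of 6 and 20 hours passed limma's test (adjusted p under 0.05 over 3560 genes, mean difference in log2 ratio, 3 durations at each hour). These are single-gene tests of the difference itself, and a constant dye effect cancels in them.

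Among enzymes of xenobiotic and redox metabolism, 2 hours exceeded the later hours by 4.19 in Aldh3a1, 3.88 in Cyp1a1, 1.75 in Nqo1, 0.79 in the P450 reductase Por, 0.73 in Gclc, 0.73 in Hmox1, 0.68 in Gclm, 0.63 in Txnrd1, 0.56 in Nfe2l2, 0.44 in Ggt1 and 0.40 in the sulfotransferase Sult1a1. Other genes higher at 2 hours were Ndrg4 by 1.55, C3 by 1.12, Ms4a7 by 1.06, Eif4ebp1 by 0.85, Edn1 by 0.64, Atp1b1 by 0.59, Hbb by 0.52 and Ccn2 by 0.52. The adjusted p was 9.61e-10 for Aldh3a1 and 0.0486 for Hbb, the smallest and the largest of these 19. Sult1a1 did not pass against air at 2 hours.

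Lower at 2 hours than later were the calcium-binding neutrophil genes S100a8 and S100a9, each by -1.19, Bmal1 by -0.78, Fcnb by -0.74, Spon2 by -0.62, the P450 Cyp2b12 by -0.52, the lipolysis inhibitor G0s2 by -0.45, the myeloid kinase Fgr by -0.45, Il1b by -0.44, Hspa5 by -0.42, Lrrn3 by -0.42, Mal by -0.42 and Akap12 by -0.41. Of these 13, S100a8, S100a9, Il1b and Hspa5 did not pass against air at 2 hours. Cyp2b12, Fgr and G0s2 did, with mean log2 ratios at 2 hours of -0.61, -0.48 and -0.50. For Bmal1 the later mean averages values of opposite sign.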

How the results depend on the processing

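Left-out durations moved the count against air most: it lay between 16 and 321, against 301 with all 3. The estimated prior degrees of freedom, 7.15 with all durations, were 24.6, 4.11 and 4.59 without the 2-week, 7-week and 13-week samples, and the cause of the change was not tested. Where the main test gave 301, low-dose samples alone gave 77, high-dose samples alone 293, all 9 combinations in 1 fit 564, and a further demand of 1.5-fold 87. Such counts, apart from the 87, come from tests of their own and are not parts of the 301. The air pool as a random block gave 442, at least 2 durations 294, 1 dose per duration 227, every probe on its own 365 of 4612, centring 292, quantile normalization 302 and a robust prior 303. The 62 differences between 2 hours and later were between 17 and 31 with a duration left out, 33 against 20 hours alone, 13 with low-dose and 17 with high-dose samples alone. They were 74 against 6 hours alone, 54 without the weeks term, 61 after centring and 62 with a robust prior. The 0 dose differences became 2 with 9 differences in 1 fit and lay between 0 and 3 with a duration left out. Of the 72 named genes past the threshold, 36 stayed past it in every alternative other than the left-out durations. With low-dose samples alone 35 did not pass and with high-dose samples alone 8, and none changed sign in any alternative. Most of the 72 had all 6 values on 1 side of air. The mean of any subset of doses or durations then keeps its sign, so that absence was largely fixed in advance. No paired analysis was possible because the labels give no replicate numbers and each condition has 1 sample, as far as a block by replicate number goes; doses were paired through their shared air pool and hours through the weeks. Array signals were not used, so dim and saturated spots could not be told apart from well-measured ones.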

Other observations

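Several gene groups outside the lists were seen among the 301 genes that changed at 2 hours. They were picked after their values were seen, so no count or test of a group is given, and each gene named passed limma's test over all genes. Lysosomal enzymes and membrane proteins were among the rises: the phospholipase family member Pld3 (mean log2 ratio 1.02), the amidase Naaa (0.87), the acid phosphatase Acp5 (0.83), the cathepsins Ctsf (0.71), Ctsz (0.65) and Ctsa (0.62), the tetraspanin Cd63 (0.58), the protease Lgmn (0.53) and the peptidase Tpp1 (0.46). Genes of the superoxide-producing NADPH oxidases rose too, Noxo1 by 0.90, Cyba by 0.45 and Cybb by 0.42. Macrophage markers rose in the same samples (11 of 15), and their part in these values was not tested.

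Xenobiotic enzymes outside the AhR and NRF2 lists moved both ways. The flavin monooxygenases Fmo2 (0.95) and Fmo5 (0.44) and the glucuronosyltransferase Ugt1a7c (0.73) rose, while Fmo1 (-0.39), the P450 Cyp4b1 (-0.43) and Ugt1a2 (-0.54) fell. Fmo2 had 1.53, 0.61 and 0.67 at the high dose after 2, 7 and 13 weeks and 1.58, 0.84 and 0.45 at the low dose, with the highest values after 2 weeks at both doses. Ugt1a7c and Ugt1a2 belong to 1 locus with shared exons, and what their probes separate is uncertain.

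Genes known to be induced by interferons were among the falls, with Gbp4 at -0.62, Gbp5 at -0.58, the transcription factor Irf7 at -0.55, Igtp at -0.48, Ifi44 at -0.46, the peptide transporter Tap1 at -0.42 and the immunoproteasome subunit Psmb8 at -0.31. Irf7 had -0.42, -0.58 and 0.04 at the high dose and -0.76, -0.74 and -0.81 at the low dose, so each low-dose sample lay below the high-dose sample of its duration. Lymphocyte markers fell in the same samples (5 of 14), and their part in these values was not tested.

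Other rises included the chemokine Ccl9 (1.04), the lysophospholipase Enpp2 (1.01), the secreted protein Retnla (0.96), the decoy receptor Il1r2 (0.77) and the NF-kB regulator Nfkbiz (0.67). Ccl9 ranged from 0.90 to 1.23 over the 6 samples. The transporters Slc6a20a (0.79), Slc27a2 (0.61) and Slc6a6 (0.59) rose as well. Further falls were the Wnt inhibitor Wif1 (-0.61), the growth factor receptor Pdgfrb (-0.56), the thyroid hormone receptor Thra (-0.55) and the chemokine Cxcl14 (-0.47).

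Of 866 probes with no gene name here, 58 passed (6.7%) when every probe was tested on its own, 23 higher and 35 lower, with mean log2 ratios from -0.84 to 1.45.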
